A study of Mus musculus with 8 samples.

Results

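Mouse brain neural progenitors that carried a lentiviral hairpin against FUBP1 and were kept proliferating are compared here with the same kind of cells carrying a non-targeted hairpin. The comparison holds 3 of the 8 libraries of the series: 1 labelled FUBP1 and 2 non-targeted controls, labelled TRC and GFP. All 3 came from cells of strain FvB/C57BL/6 grown in N2 medium with EGF and bFGF at 20 ng/ml, infected with lentivirus and selected with puromycin for 3 days. The series also holds a proliferating library with a hairpin against CIC, and 4 libraries from cells moved for 5 days to neurobasal medium with B27, labelled 7 and GFP-D (non-targeted), FUBP1-D and CIC-D. Total RNA was sequenced after TruSeq library preparation, and each gene has an FPKM value, the fragments of a transcript scaled by its length and by the fragments mapped in the library. The labels do not say which animals, clones or cultures stand behind a library, so the spread between TRC and GFP may be biological or technical.

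FUBP1 is a nuclear protein that binds single-stranded DNA upstream of Myc and also binds RNA, where it takes part in the choice of exons during splicing. The study asked how FUBP1 acts on the differentiation of neural progenitors and on the splicing of LSD1, the histone demethylase encoded by Kdm1a. Neural progenitors kept in EGF and bFGF divide and express Sox2, Nes, Vim and Fabp7. On withdrawal of these factors they give rise to neurons, astrocytes and oligodendrocytes. Gene-level FPKM holds no exon usage, so splicing was not analysed here.

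All 3 libraries had the markers of neural progenitors. Of the 30 progenitor genes in the table, 25 were at 1 FPKM or more in TRC, 22 in GFP and 25 in FUBP1. Sox2 stood at 116 FPKM in TRC, 182 in GFP and 130 in FUBP1, and Fabp7 at 1002, 1434 and 1285. The defining markers of other cell types were at or near 0: Aif1, Cx3cr1 and Rbfox3 were listed at 0 in all 3 libraries, and Ptprc, Cdh5 and Col1a2 were below 0.02 FPKM in each. The ependymal gene Foxj1 was present at 9.02 to 11.1 FPKM. FPKM summed to 514610 in TRC, 541608 in GFP and 515971 in FUBP1, and between 10945 and 11077 rows reached 1 FPKM. FPKM does not keep the read depth, so the counting error of a single value is unknown. A gene listed at exactly 0 may be a failed estimate: Gtf2i, a general transcription factor picked out after its values were seen, was listed at 0 in TRC but at 42.0 in GFP and 68.3 in FUBP1.

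The controls did not resemble each other closely. Over the 11968 genes that reached 1 FPKM in at least 2 of the 8 libraries, TRC and GFP differed by more than 1 log2 unit at 1937 genes, or 16.2%. FUBP1 and TRC differed by that much at 376 genes, or 3.14%, and FUBP1 and GFP at 1789, or 14.9%. Log2 values, taken as log2(FPKM + 1), correlated at 0.98 between FUBP1 and TRC across genes, which are not independent replicates. The value was 0.92 between FUBP1 and GFP and 0.91 between TRC and GFP. FUBP1 lay nearer to TRC than to GFP for 8943 genes, or 74.7%. The comparison is therefore of 1 library with 2 controls that stand further from each other than TRC does from FUBP1. An exact permutation test of 1 library against 2 cannot give a p below 0.333 (two-sided), so differences that held against both controls are described by their size.

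Transcripts of the Y chromosome also separated the libraries. The 4 Y-linked genes above 1 FPKM in some library summed to 10.01 FPKM in TRC, 17.1 in GFP and 44.3 in FUBP1. Eif2s3y, a translation factor subunit, stood at 4.55, 9.33 and 22.6 FPKM, and Ddx3y, an RNA helicase, at 3.28, 4.93 and 13.2. Kdm5d, a histone demethylase, stood at 0.981, 1.19 and 4.31, and Uty at 1.202, 1.63 and 4.18. In the differentiating libraries the sum was 47.1 in 7, 17.1 in GFP-D and 15.9 in FUBP1-D, so the order of the hairpins was not the same in the 2 states. The share of male cells behind each library is not in the labels, and its part in the differences below was not tested.

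The target came first. In mm9 Fubp1 spans bases 151873422 to 151899794 of chromosome 3. Its level was 50.2 FPKM in TRC, 12.4 in GFP and 34.8 in FUBP1. The hairpin library therefore lay between the controls, below TRC by 0.52 log2 units and above GFP by 1.41. Against the mean of the controls the difference was 0.45 ± 0.78 log2 units (SE; limma over all 8 libraries with 2 residual degrees of freedom, Benjamini-Hochberg adjusted p = 0.9999 over all genes). Without GFP the difference was -0.52, and without TRC it was 1.41. The library with the hairpin against CIC held 34.8 FPKM of Fubp1 as well. In the differentiating libraries Fubp1 stood at 24.8 FPKM in 7, 25.4 in GFP-D and 21.6 in FUBP1-D, a library below both of its controls by at least 0.19 log2 units. A fall of Fubp1 mRNA against both controls was thus not seen in the proliferating library, which is called the library labelled FUBP1, or FUBP1 for short. Protein was not measured in these files.

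No gene of the lists around FUBP1, Myc, LSD1 and splicing passed 1 log2 unit against both controls. Kdm1a, which encodes LSD1, stood at 50.3 FPKM in TRC, 41.2 in GFP and 49.0 in FUBP1, between the controls. Fubp3, a paralog, stood at 35.4, 44.1 and 35.0 FPKM. Khsrp, the other paralog, stood at 32.4, 34.8 and 35.5. Puf60, which represses transcription from the Myc upstream element, stood at 102, 67.1 and 106. Myc itself stood at 37.9 FPKM in TRC, 27.7 in GFP and 47.5 in FUBP1, above both controls by 0.32 log2 units or more. Over all kept genes 26.7% lay above both controls by any margin and 27.7% below both, the shares against which the counts of each list stand. Of 13 kept genes in a list of the FUBP family, Myc and the D cyclins, 5 lay above both controls (38.5%) and 2 below both (15.4%). Ccnd2, a D cyclin, was the furthest above both, at 39.6, 55.8 and 102 FPKM. Of 18 kept genes in a list of LSD1 and its partners, 6 lay above both (33.3%) and 4 below both (22.2%), near the shares of all genes. Of 47 kept splicing regulators 17 lay above both (36.2%) and 5 below both (10.6%).

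Genes well above both controls outnumbered those well below. FUBP1 exceeded both TRC and GFP by more than 1 log2 unit, a doubling of FPKM + 1, at 119 genes, which is 0.994% of the genes kept. It fell short of both by more than 1 at 15 genes, or 0.125%. By any margin 3198 genes (26.7%) lay above both controls and 3321 (27.7%) below both, so higher genes did not outnumber lower ones at that level. The counts past 1 log2 unit also moved with each control: without TRC they were 900 above and 889 below, without GFP 293 and 83, and with a pseudocount of 0.1 they were 197 and 84. At 1.5-fold the counts were 291 above and 153 below, and at 2 log2 units 24 above and 0 below. In the limma fit of all 8 libraries, 0 genes (0%) differed from the controls at an adjusted p under 0.05, and 118 did so at an unadjusted p under 0.05, although 0.05 of the genes kept is 598.4. Of the 119 genes 74 were among those 118, and of the 15 genes 7 were. The lists and this contrast compare the same libraries, so the overlap follows in part from the choice and is no separate support. The values just inside and outside the threshold differed little: Igfbp4 at 1.0001 and B4galt5 at 0.9994 above both, Car5b at -1.0022 and Mgarp at -0.9911 below both.

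**Figure D1:**
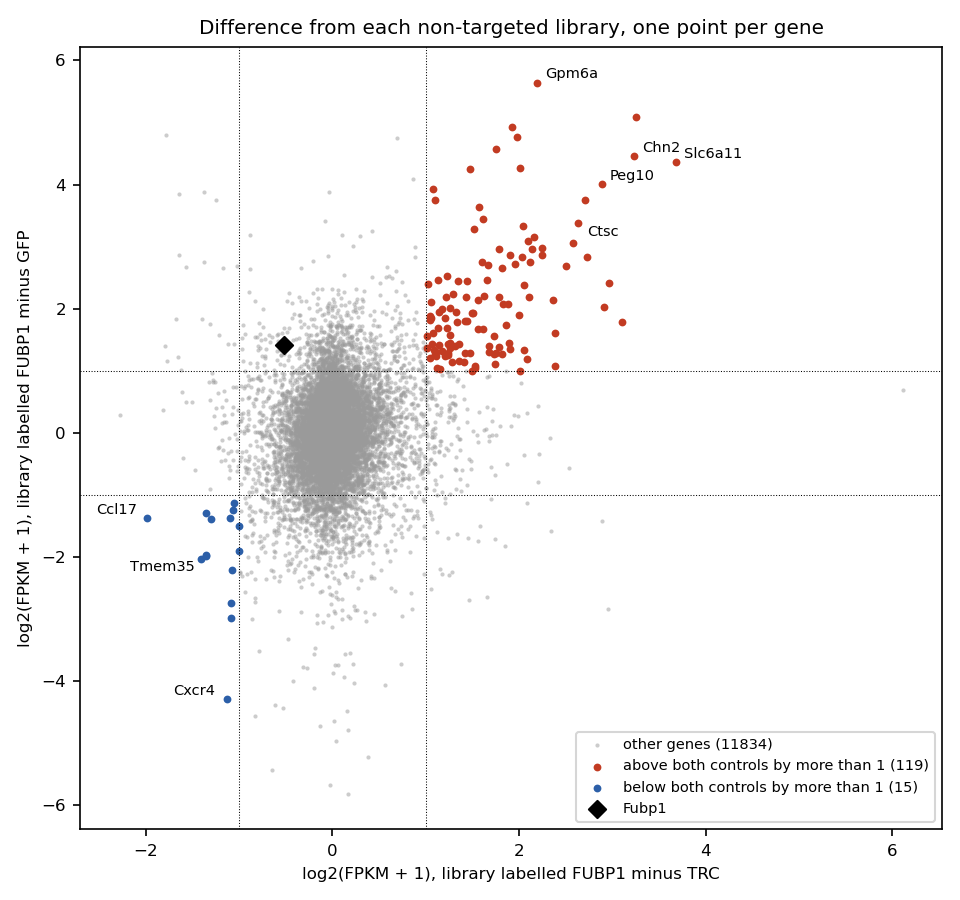
Each point is 1 of the 11968 genes, with the difference of log2(FPKM + 1) between the library labelled FUBP1 and TRC on the x axis and the difference from GFP on the y axis. The 119 genes above both controls by more than 1 are red, the 15 below both are blue, and Fubp1 (black diamond) sits at -0.52 against TRC and 1.41 against GFP.

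The 119 genes were low in the controls. Their median was 2.22 FPKM in TRC, 1.06 in GFP and 9.65 in FUBP1, and 36 of them were under 1 FPKM in TRC and 56 in GFP. A gene so low in the controls passed the filter through the libraries where it was high. The median difference over the 119 was 1.57 log2 units from TRC and 1.93 from GFP. TRC was higher than GFP for 88 of the 119. For the 15 genes the median was 10.1 FPKM in TRC, 18.2 in GFP and 4.10 in FUBP1, and GFP was the higher control for 13 of them. FUBP1 was thus nearer to TRC than to GFP for 88 of the 119 genes and for 13 of the 15. Over all kept genes the share was 74.7%, so for the 119 nothing is read from it.

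The furthest above both controls was Slc6a11, which encodes a GABA transporter found on astrocytes. It stood at 0.5996 FPKM in TRC, was listed at 0 in GFP and at 0 in the library with the hairpin against CIC, and stood at 19.6 in FUBP1. The gene lies on chromosome 6 at 114081235 to 114199880 (mm9). In limma the difference from the mean of the controls was 4.02 ± 0.80 (SE) for Slc6a11, with an adjusted p of 0.9999. Slc38a3, which carries glutamine, was also above both, at 12.04, 7.45 and 31.6 FPKM. Slc1a3, a glutamate transporter of progenitors and astrocytes, stood at 30.4 in TRC, 149 in GFP and 71.3 in FUBP1, between the controls. Glul, glutamine synthetase, stood at 21.4, 103 and 28.4. Of 17 kept genes of glutamate and GABA uptake and metabolism, 5 (29.4%) lay above both controls by any margin and 4 (23.5%) below both. These shares were near the 26.7% and 27.7% of all genes.

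Receptor subunits for the same transmitters, which form the ion channels and coupled receptors that sense glutamate and GABA, also had members above both controls. Of 15 kept glutamate and GABA receptor genes, 11 lay above both and 2 below both by any margin, and 6 lay above both by more than 1, where 0.994% of all genes did. The list has 34 genes in the table, and the 15 include genes under 1 FPKM in both controls that passed the filter through libraries where they were high, so nothing is read from the counts or medians of those kept. The median difference over the 15 was 0.27 from TRC and 0.35 from GFP, against -0.01 and 0.02 over all genes, and over all 34 without the filter it was 0.01 and 0.03. Gabrg1, a GABA-A receptor subunit, was listed at 0 in GFP and stood at 0.548 FPKM in TRC and 5.71 in FUBP1. Its neighbour Gabra2 stood at 0.167, 0.0163 and 3.29. Gabra4 stood at 0.302 FPKM in TRC, 0.0729 in GFP and 1.87 in FUBP1. These 3 subunits were all below 1 FPKM in both controls. Grm5, a metabotropic glutamate receptor, was more abundant, at 9.34, 0.467 and 33.97 FPKM. Grik1, a kainate receptor subunit, stood at 1.33, 0.0556 and 6.08. The AMPA receptor subunit Gria3 went the other way, at 7.72 FPKM in TRC, 18.2 in GFP and 3.13 in FUBP1. With a pseudocount of 5 only 1 of the 6 genes stayed above both by more than 1, since most were low. In the CIC hairpin library, which shares both controls, Gabrg1 stood at 12.2 FPKM, Gabra2 at 16.3, Grm5 at 14.4, Grik1 at 1.90 and Gabra4 at 0.114. Whether few cells with high levels or many with low levels gave these values cannot be told apart in bulk RNA.

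The promoters of 3 of these genes and of the imprinted gene Nnat, described next, are shown because Slc6a11 lies furthest above both controls, Gabrg1 and Gabra2 are neighbours among the genes above both, and Nnat is an imprinted gene among them. They are the 250 bases before the start site, from RefSeq on GRCm38.p6, 5′ to 3′ on the strand of the gene, with the dinucleotide CG in capitals.
Slc6a11: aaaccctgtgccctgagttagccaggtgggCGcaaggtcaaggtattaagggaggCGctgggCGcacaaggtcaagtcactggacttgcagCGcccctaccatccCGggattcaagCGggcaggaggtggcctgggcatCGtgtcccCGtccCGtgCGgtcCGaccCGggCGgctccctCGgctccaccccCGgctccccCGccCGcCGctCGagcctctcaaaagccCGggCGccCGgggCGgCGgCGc
Gabrg1: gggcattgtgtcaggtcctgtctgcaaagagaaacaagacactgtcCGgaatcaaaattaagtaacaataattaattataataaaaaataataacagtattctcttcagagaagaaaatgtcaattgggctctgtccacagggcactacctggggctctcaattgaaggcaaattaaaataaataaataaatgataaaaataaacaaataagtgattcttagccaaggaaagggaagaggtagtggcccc
Gabra2: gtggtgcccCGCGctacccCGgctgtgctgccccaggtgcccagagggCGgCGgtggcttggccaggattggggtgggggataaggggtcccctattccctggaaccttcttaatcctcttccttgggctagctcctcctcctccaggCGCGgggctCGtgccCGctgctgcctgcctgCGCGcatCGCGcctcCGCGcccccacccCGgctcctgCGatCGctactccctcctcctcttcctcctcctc
Nnat: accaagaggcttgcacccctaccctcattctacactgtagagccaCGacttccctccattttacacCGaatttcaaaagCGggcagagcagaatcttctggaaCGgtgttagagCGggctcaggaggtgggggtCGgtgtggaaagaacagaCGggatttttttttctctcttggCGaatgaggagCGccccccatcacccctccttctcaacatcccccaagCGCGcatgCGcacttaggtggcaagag
The windows lie at chr6:114130991-114131240 on the plus strand for Slc6a11, chr5:70842618-70842867 on the minus strand for Gabrg1, chr5:71095850-71096099 on the minus strand for Gabra2 and chr2:157559828-157560077 on the plus strand for Nnat. Slc6a11 held 25 CG, Gabra2 18, Nnat 12 and Gabrg1 1. The dinucleotide CG reads the same on both strands, and 91.7% of the 27025 promoter windows of this length held at least 1. A comparison of CG counts between the 119 genes and all genes is void, since 92 of the 119, or 77.3%, could be matched to a window.

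Imprinted genes, expressed from 1 parental copy, were a further group with members far above both controls. Of 18 kept imprinted genes 12 lay above both and 3 below both, and 5 lay above both by more than 1, where 0.994% of all genes did. The median difference over the 18 was 0.44 from TRC and 0.42 from GFP. Over all 31 imprinted genes of the table, without the filter on low values, it was 0.09 and 0.01. Peg10 (chromosome 6, 4697306 to 4710516, mm9), a retrotransposon-derived gene, stood at 13.4 FPKM in TRC, 5.63 in GFP and 105 in FUBP1, a level 7.87 times TRC. Nnat, which encodes the membrane protein neuronatin, stood at 10.8, 5.77 and 47.0 FPKM. Mest was the most abundant, at 323 FPKM in TRC, 50.7 in GFP and 695 in FUBP1. Peg3, a zinc finger gene, stood at 2.07, 2.74 and 8.84, and Ppp1r9a, next to Peg10 on chromosome 6, at 3.86, 3.24 and 9.47. Ndn came close to the threshold at 18.99, 1.13 and 35.4. Igf2r, which clears insulin-like growth factor from the cell surface, lay between the controls at 20.6, 41.0 and 22.7 FPKM. Sgce, which starts beside Peg10, stood at 11.9, 25.4 and 16.3 FPKM, between the controls.

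**Figure D2:**
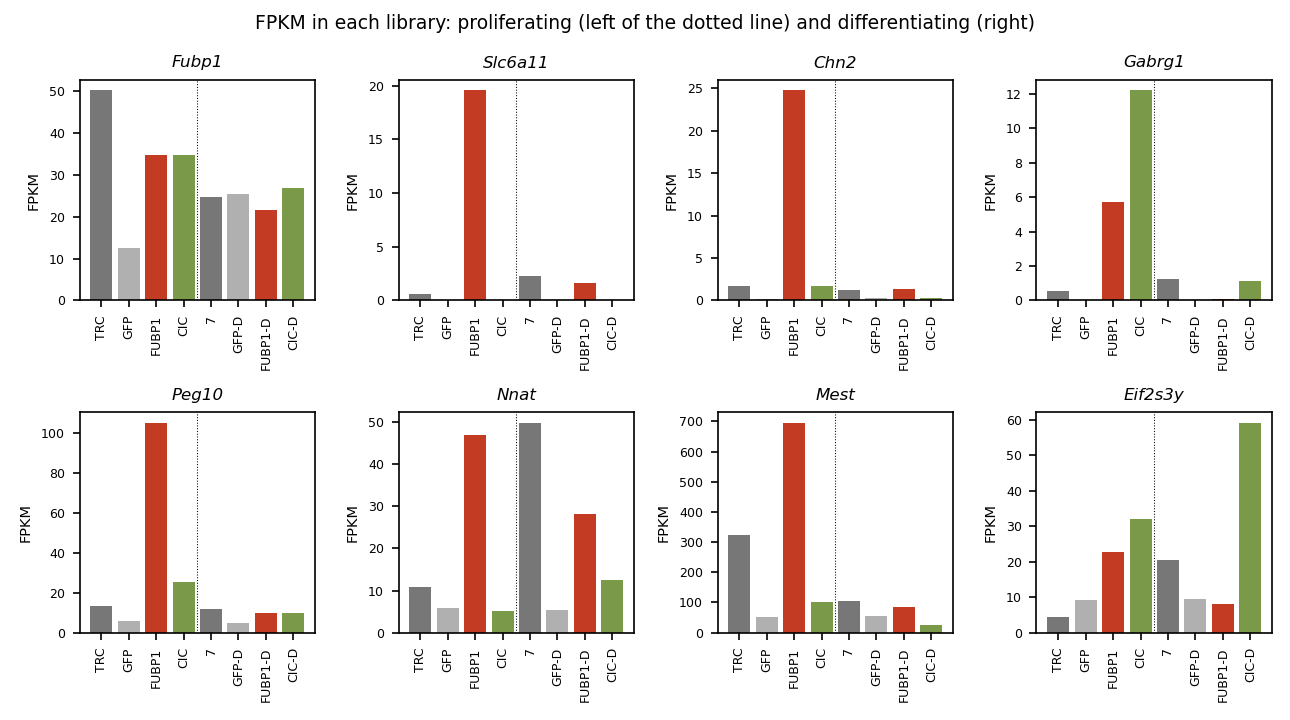
FPKM of 8 genes in each of the 8 libraries, 1 bar per library, with the proliferating libraries left of the dotted line and each panel on its own scale. Slc6a11, Chn2, Peg10 and Mest have their highest bar in FUBP1, while Fubp1 itself is between TRC and GFP.

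Other genes far above both controls had varied functions. Chn2, a Rac regulator downstream of guidance receptors, stood at 1.73 FPKM in TRC, 0.167 in GFP and 24.7 in FUBP1. Ctsc, a lysosomal protease, stood at 10.01, 5.59 and 67.5, and Thrsp, a gene tied to fatty acid synthesis, at 5.57, 2.18 and 42.0. Pla2g3, a secreted phospholipase, stood at 0.569, 0.123 and 8.38. Cxcl5, a chemokine for neutrophils, stood at 4.58 FPKM in TRC, 7.23 in GFP and 42.6 in FUBP1. Gpm6a, a neuronal membrane glycoprotein, was at 10.5 in TRC, 0.0448 in GFP and 51.2 in FUBP1, so its large difference from GFP rests on that library. Gucy1b3, a subunit of the nitric oxide receptor, stood at 1.17, 0.311 and 9.29 FPKM, and Atp9a, a lipid flippase, at 2.73, 1.11 and 15.4. Fbn2, a microfibril protein, stood at 1.25, 0.456 and 9.65. The clustered protocadherins Pcdhga5 and Pcdhga8 stood at 6.22 and 8.30 FPKM in FUBP1 and at or below 1.08 in the controls. Transcripts of that cluster share their 3′ exons, so the split of fragments among them is uncertain. The CIC hairpin library, which shares both controls, was also above both for Gpm6a (77.4 FPKM), Gucy1b3 (38.8), Fbn2 (36.3), Ctsc (30.0), Atp9a (19.9) and Cxcl5 (14.7). It was not above both for Chn2 (1.66), Thrsp (0.817), Pla2g3 (0.414), Pcdhga5 (0.0726) or Pcdhga8 (0.439). Of 35 kept protocadherins of the clusters, 14 (40%) lay above both and 9 (25.7%) below both, against 26.7% and 27.7% of all genes.

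Members below these in rank were picked for description after their values were seen, as examples of function. Genes of synaptic and calcium signalling were among them: Camk2b, a calcium-dependent kinase, stood at 16.4 FPKM in TRC, 24.5 in GFP and 60.3 in FUBP1. Rgs7, a regulator of G proteins, stood at 2.19, 0.599 and 12.6, and Ank2, an ankyrin that anchors membrane proteins, at 20.99, 19.5 and 51.7. Cacng8, an AMPA receptor auxiliary subunit, stood at 9.05, 10.5 and 27.0 FPKM. The controls were close to each other for Ank2 and Cacng8. Cdk6, the partner of D cyclins, stood at 0.892, 1.02 and 6.55. Gpr56, an adhesion receptor of progenitors, stood at 43.5 FPKM in TRC, 42.3 in GFP and 104 in FUBP1. Among secreted proteins, Spon1 stood at 5.81, 0.427 and 26.5 FPKM, Tnfaip6, which binds hyaluronan, at 3.93, 1.01 and 10.6, and the chemokine Cxcl10 at 13.98, 24.8 and 77.5. Bex2, on the X chromosome, stood at 15.5, 1.06 and 61.4 FPKM, so its distance from GFP exceeded that from TRC. In the CIC hairpin library, which shares both controls, these genes were above both as well, except Spon1 and Bex2. Gpr56 stood there at 103 FPKM, Cxcl10 at 102, Tnfaip6 at 84.3 and Rgs7 at 26.6, with Spon1 at 0.515 and Bex2 at 0.0405.

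Metalloproteinases and their inhibitors, which cut and protect the matrix, had 6 of 25 kept genes above both controls by more than 1 and 0 below, against 0.994% and 0.125% of all genes. By any margin 10 (40%) lay above both and 5 (20%) below both, against 26.7% and 27.7%. The median difference over the 25 was 0.05 from TRC and 0.07 from GFP. Of the list, 1 gene was above both by more than 1 with a pseudocount of 5, and 4 were under quantile normalization. Adam12 stood at 8.29 FPKM in TRC, 7.21 in GFP and 51.8 in FUBP1, 1 of the few large differences with controls close to each other. Its difference from the mean of the controls was 2.60 ± 0.36 log2 units (SE, limma, adjusted p = 0.9999). Adam19 stood at 12.4, 25.9 and 52.8 FPKM and Mmp15 at 34.7, 36.5 and 76.5. Adamts5 stood at 0.313, 0.478 and 3.35. The inhibitor Timp2 lay below both, at 54.5, 136 and 35.2, while the inhibitor Timp4 lay above both, at 4.37, 2.94 and 12.5. The CIC hairpin library, which shares both controls, was also above both for Adam12 (42.8 FPKM), Adam19 (50.5), Mmp15 (45.7), Adamts5 (19.7) and Timp4 (24.8). Mmp17, also above both in FUBP1, stood at 0.327 in the CIC hairpin library, below both. Of 27 kept collagens 15 (55.6%) lay below both controls and 4 (14.8%) above both, against 27.7% and 26.7% of all genes. Their median difference was -0.30 from TRC and -0.27 from GFP, which became -0.15 and -0.19 with a pseudocount of 5. Over all 37 collagens of the table, without the filter on low values, it was -0.02 and -0.13. Col18a1, the precursor of endostatin, was the furthest below both of them.

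**Figure D3:**
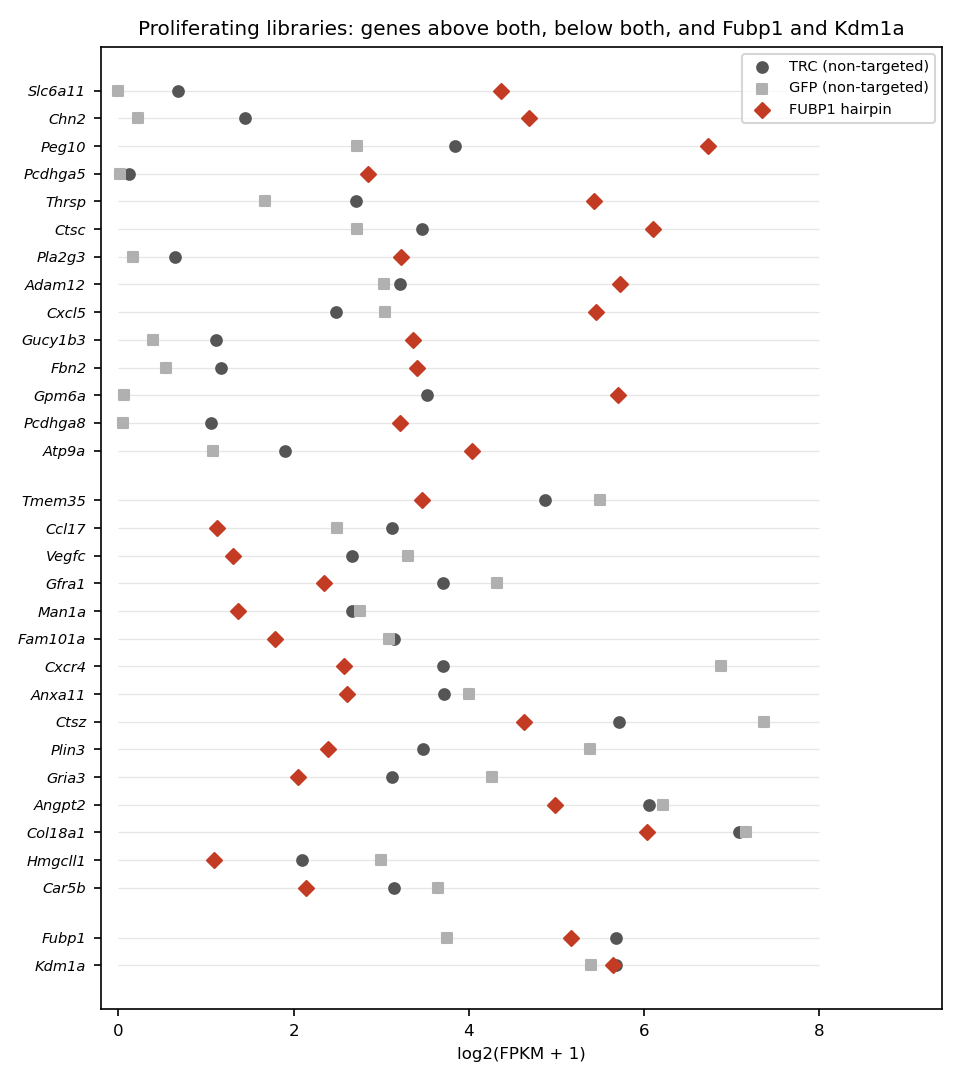
Log2(FPKM + 1) in TRC (circles), GFP (squares) and the library labelled FUBP1 (diamonds) for 14 of the 15 genes furthest above both controls, the 15 below both, and Fubp1 and Kdm1a. The gap between the diamond and the nearer control runs from 3.68 for Slc6a11 to 2.14 for Atp9a above, and from -1.41 for Tmem35 to -1.002 for Car5b below.

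The 15 genes below both controls had varied functions. Tmem35, a transmembrane gene on the X chromosome, was furthest below, at 28.3 FPKM in TRC, 44.2 in GFP and 10.02 in FUBP1. The chemokine Ccl17 stood at 7.69, 4.65 and 1.18. Cxcr4, a chemokine receptor of migrating progenitors, stood at 12.02 FPKM in TRC, 116 in GFP and 4.96 in FUBP1, so it lay 4.30 log2 units from GFP and 1.13 from TRC. Vegfc, a growth factor for lymphatic vessels, stood at 5.36, 8.86 and 1.48 FPKM, and Angpt2, a ligand of the vascular receptor Tie2, at 65.3, 73.5 and 30.6. Gfra1, the receptor for GDNF, stood at 12.05, 18.9 and 4.10. The lysosomal protease Ctsz stood at 51.6, 165 and 23.7 FPKM and the lipid droplet protein Plin3 at 10.1, 40.7 and 4.23. Controls close to each other were found for Col18a1, at 134 FPKM in TRC, 143 in GFP and 64.2 in FUBP1, and for Man1a, a Golgi mannosidase, at 5.34, 5.74 and 1.57. Fam101a, an actin regulator, stood at 7.86, 7.50 and 2.46. Anxa11, Gria3, Hmgcll1 and Car5b complete the 15 genes, with smaller differences from the controls between -1.002 and -1.10. With a pseudocount of 5, 13 of the 15 were no longer below both by more than 1. The CIC hairpin library, which shares both controls, was also below both for the 15 genes except Gria3, at 11.3 FPKM. Ctsz stood there at 0.126 FPKM, Plin3 at 0.183, Angpt2 at 5.51 and Col18a1 at 16.4, while Tmem35, at 28.0, was barely below TRC.

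Growth factor genes were found on both sides. Of 33 kept genes for EGF, FGF and related receptors and ligands, 10 (30.3%) lay above both controls and 12 (36.4%) below both, against 26.7% and 27.7% of all genes, with 4 above by more than 1 and 2 below. Fgfr3, a receptor for FGF, stood at 6.84 FPKM in TRC, 3.67 in GFP and 20.2 in FUBP1. Igfbp4, which binds insulin-like growth factors, stood at 66.5, 94.2 and 189. Kit stood at 2.55, 1.45 and 6.19. Ntrk2, the BDNF receptor, was listed at 0 in GFP and stood at 1.08 in TRC and 3.32 in FUBP1. Under quantile normalization 1 of these 4 stayed past the threshold.

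Of 16 kept Notch receptors, ligands and effectors, out of 23 in the table, 11 (68.8%) lay above both controls and 0 below both, against 26.7% and 27.7% of all genes, with a median difference of 0.36 from TRC and 0.32 from GFP, and the counts did not change under either other scaling. Most margins were small and 1 gene passed the threshold: Dll1, a ligand, at 1.35 FPKM in TRC, 0.201 in GFP and 4.47 in FUBP1. Lfng, which modifies the receptors, stood at 42.7, 20.7 and 75.8 FPKM, and Notch1 at 39.9, 34.1 and 57.3. The effector Hes1 stood at 16.3, 26.6 and 33.1. Id3, an inhibitor of bHLH factors in the progenitor list, stood at 44.8 FPKM in TRC, 24.6 in GFP and 161 in FUBP1. Sox3, a progenitor transcription factor, stood at 6.75, 10.9 and 24.9. Of the 25 kept progenitor genes 7 (28%) lay above both, near the 26.7% of all genes, and 3 (12%) below both.

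Genes of the differentiated lineages were mixed. In the neuronal list 9 of 17 kept genes (52.9%) lay above both controls and 2 (11.8%) below both, against 26.7% and 27.7% of all genes. These counts became 6 and 3 under quantile normalization. Over all 39 neuronal genes, without the filter on low values, 19 lay above both and 5 below both. The median difference fell from 0.19 to 0.02 against TRC and from 0.38 to 0.03 against GFP, so nothing is read from the counts of those kept. Gap43, a growth cone protein, stood at 2.68 FPKM in TRC, 8.14 in GFP and 30.6 in FUBP1, and at 250 in the CIC hairpin library. Nefl, the light neurofilament, lay between the controls, at 537, 13.1 and 206. In the oligodendrocyte list 8 of 16 kept genes (50%) lay above both and 3 (18.8%) below both, and Lhfpl3 was above both by more than 1, at 3.24, 0.192 and 11.99. Over all 26 oligodendrocyte genes without the filter, 12 lay above both and 3 below both. The median difference fell from 0.18 to 0.05 against TRC and from 0.25 to 0.05 against GFP, so nothing is read from these counts either. In the astrocyte list 10 of 24 kept genes (41.7%) lay above both and 5 (20.8%) below both. Aldoc, an astrocytic aldolase, stood at 28.0, 8.06 and 47.6 FPKM, while Aqp4, the water channel, stood at 2.85, 13.3 and 1.17 and Sparcl1 at 121, 95.4 and 63.2. Of 27 kept potassium channel genes 15 (55.6%) lay above both and 8 (29.6%) below both, and Kcnmb4 and Kcnd3 passed the threshold. Without the filter on low values 33 of 93 lay above both and 12 below both, against 4567 and 3941 of all 20793 rows.

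Several lists differed unequally from the controls. Of 44 mitosis genes 26 (59.1%) lay above both controls and 0 below both, against 26.7% and 27.7% of all genes, but the median difference was 0.03 from TRC and 1.56 from GFP. Mki67, a marker of dividing cells, stood at 43.2 FPKM in TRC, 19.1 in GFP and 57.4 in FUBP1. Of 12 fatty acid synthesis genes 10 (83.3%) lay above both, with a median of 0.13 from TRC and 0.93 from GFP. Fasn, the synthase, stood at 94.6, 27.6 and 105 FPKM. Of 35 kept lysosomal genes 17 (48.6%) lay below both and 2 (5.71%) above both, with medians of 0.03 and -1.13. Of 22 kept p53 targets 14 (63.6%) lay below both and 1 (4.55%) above both, with medians of -0.16 from TRC and -0.97 from GFP. Gadd45a, a stress gene of that list, stood at 44.1, 99.6 and 27.9 FPKM. Of 24 immediate early genes 11 (45.8%) lay below both, with medians of -0.16 and -0.70. Interferon-stimulated genes showed opposite signs, 0.73 above TRC and -0.22 from GFP at the median, with 13 of 40 kept genes (32.5%) above both. No gene of the mitosis, fatty acid, p53, immediate early or interferon lists passed 1 log2 unit against both controls.

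Of 29 kept glycolysis and hypoxia genes 16 (55.2%) lay below both controls and 3 (10.3%) above both, against 27.7% and 26.7% of all genes. Their median difference was -0.30 from TRC and -0.30 from GFP, which became -0.31 and -0.16 under quantile normalization. None passed 1 log2 unit. Pdk1, a kinase that inhibits pyruvate dehydrogenase, stood at 9.998 FPKM in TRC, 10.7 in GFP and 5.04 in FUBP1. Bnip3, a mitophagy receptor, stood at 88.0, 187 and 52.1, and Egln3, an oxygen sensor, at 19.1, 45.4 and 10.5. Aldoc was the furthest above both in this list.

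**Figure D4:**
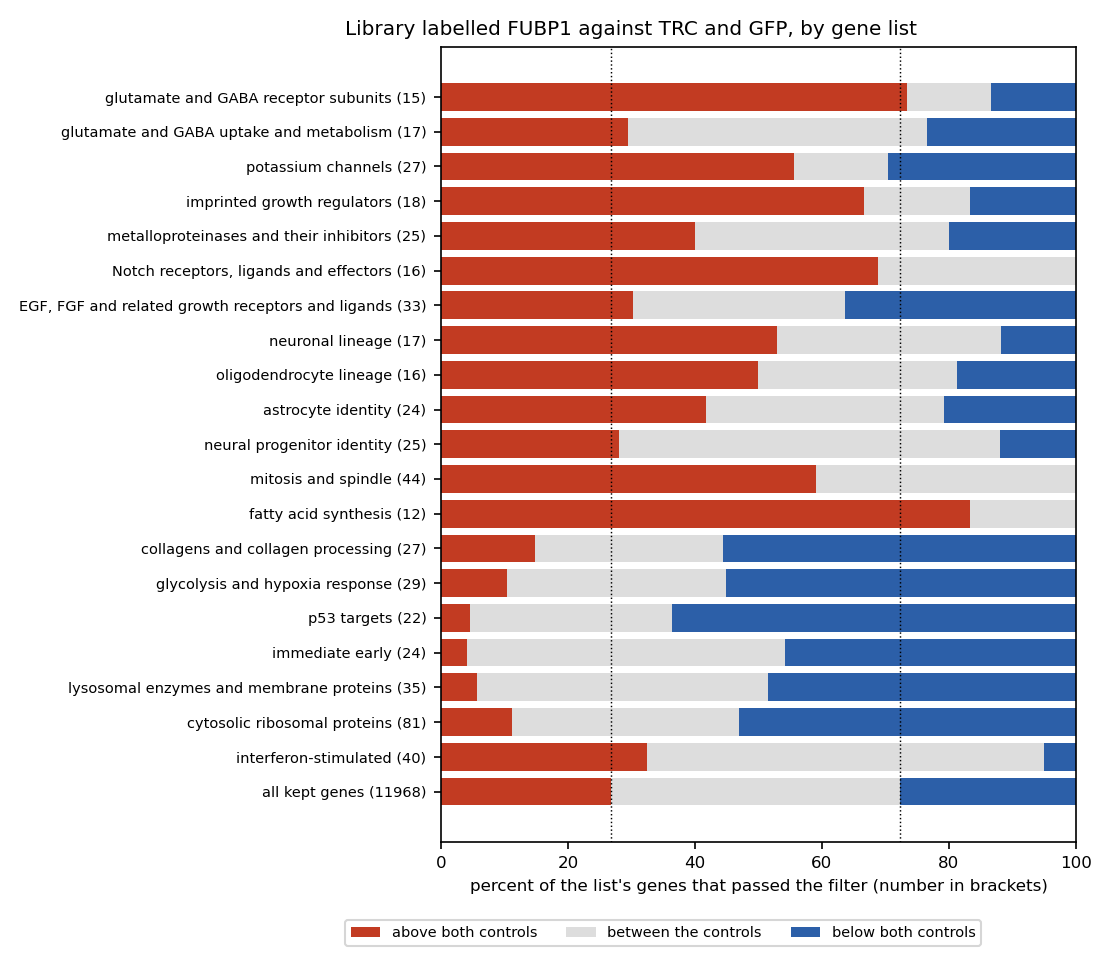
For each gene list, the percent of kept genes for which the library labelled FUBP1 lay above both controls (red), between them (grey) or below both (blue), with dotted lines at the shares over all 11968 genes. Among the lists drawn, receptor subunits, imprinted, Notch and fatty acid genes extend furthest past the left line, and p53 targets, collagens and glycolysis genes past the right one. The filter left 15 of 34 receptor genes and 18 of 31 imprinted genes. It left 17 of 39 neuronal, 16 of 26 oligodendrocyte and 27 of 93 potassium channel genes. Nothing is read from the bars of these lists.

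Some of the genes above both controls lay close together. With starts no more than 500 kb apart, 24 of the 119 (20.2%) had another of the 119 nearby, against 6.12% of all kept genes that had 1 of them nearby. The window was chosen after the values were seen. Gabrg1 and Gabra2, Peg10 and Ppp1r9a, and Cxcl5 and Pf4 are such pairs. Gpr56 and Mmp15 on chromosome 8 are another, at 104 and 76.5 FPKM in FUBP1. The loci of 3110082J24Rik and Gareml overlap and the protocadherins share exons, so their values are not independent, and the 3 Y-linked members count among the 24. Near Cxcl5 the chemokine Cxcl1 did not share the difference, at 4.17 FPKM in TRC, 77.5 in GFP and 25.3 in FUBP1. By chromosome, 18 of the 119 lay on chromosome 5 (2.30% of its 783 kept genes), 15 on chromosome 7 (1.65%) and 11 on chromosome 6 (1.92%).

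The differentiating libraries, which share none of these 3 libraries, gave the same hairpin label a second comparison. FUBP1-D exceeded both 7 and GFP-D by more than 1 log2 unit at 149 genes (1.24%) and fell short of both at 91 (0.76%). By any margin the shares were 34.9% and 28.3%. Of the 119 genes 5 (4.202%) were also above both differentiating controls by more than 1, which is 3.36% of the 149. They were Aldh1a7, C1ql3, Kcnmb4, Stmn3 and Timp4. By any margin 31 of the 119 (26.1%) lay above both, below the 34.9% of all genes, and 23 (19.3%) lay below both. Of the 15 genes 0 were below both differentiating controls by more than 1, and 6 (40%) were by any margin against 28.3% of all genes. Timp4 stood at 10.9 FPKM in 7, 10.3 in GFP-D and 58.1 in FUBP1-D.

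The non-targeted library 7, and not FUBP1-D, was most often the highest of its state for the 119 genes. It was the highest of 7, GFP-D and FUBP1-D for 71 (59.7%), FUBP1-D for 31 (26.1%) and GFP-D for 17 (14.3%). Over all genes 7 was the highest for 31.9%, FUBP1-D for 34.9% and GFP-D for 33.2%. GFP-D was the lowest for 83 of the 119 (69.7%), against 38.2% of all genes. Nnat stood at 49.8 FPKM in 7, 5.40 in GFP-D and 28.1 in FUBP1-D. Library 7 was also the highest of the 3 for the summed Y-linked genes given above. Whether cultures kept their hairpin labels between the states was not tested. In the limma fit 0 genes (0%) had a difference of the FUBP1 effect between states at an adjusted p under 0.05, with 99 at an unadjusted p under 0.05.

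**Figure D5:**
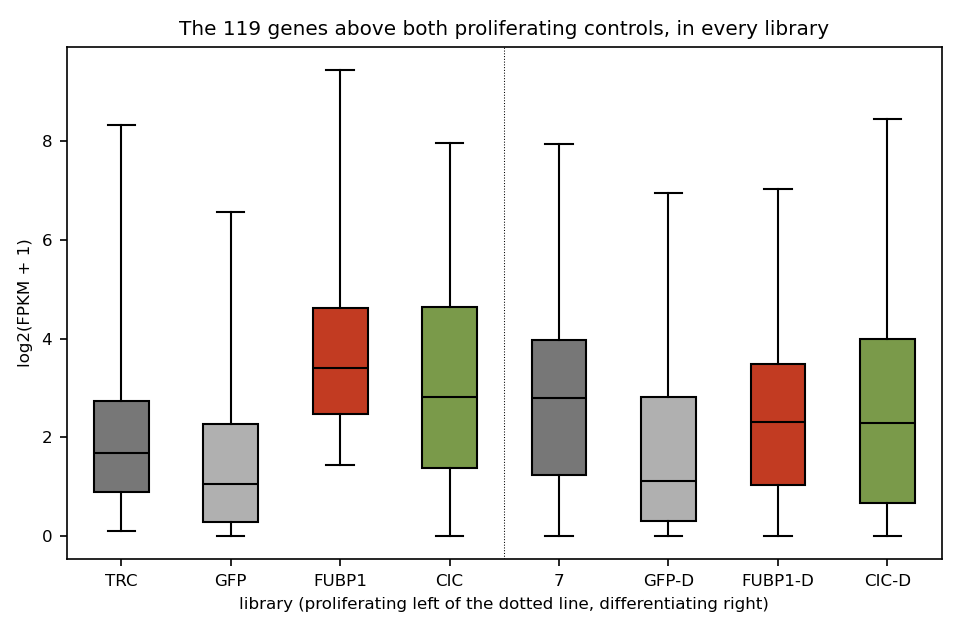
Log2(FPKM + 1) of the 119 genes above both proliferating controls, in each of the 8 libraries. Boxes span the quartiles with the median as a line and whiskers reach the lowest and highest gene. By choice FUBP1 is above TRC and GFP, and among the differentiating libraries the median is highest in 7 (5.91 FPKM) and lowest in GFP-D (1.15 FPKM), with 3.93 in FUBP1-D.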

How the data were processed

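Total RNA of mouse brain neural progenitors was sequenced, and 1 table of FPKM values per gene was deposited. Per the submitters' processing notes the authors used bcl2fastq 2.17, cutadapt, TopHat2 2.0.11 and Cufflinks 2.1.1 with build mm9. The header names no unit. The values were taken as FPKM from these tools and their range, and depth is not kept in them. Of 20793 rows, 11968 with at least 1 FPKM in at least 2 of the 8 libraries were kept. Values were taken as log2(FPKM + 1), on which fold changes of low genes are understated. FUBP1 was set against TRC and GFP separately, and genes beyond 1 log2 unit against both were counted. A limma 3.58.1 fit (R 4.3.3) of 6 group means over 8 libraries gave moderated t tests, with Benjamini-Hochberg adjustment over all genes. The spread of each gene came from the pairs of controls, on 2 residual degrees of freedom. It was then drawn towards a trend over all genes, so the p-values do not rest on those 2 alone. As 1 control of each state has GFP in its name, the 2 residual degrees of freedom may not be independent. Both steps were tested on simulated data. Named genes are Fubp1, Kdm1a, the 15 furthest on each side by the smaller difference, and up to 4 per described list, with pathway partners. Some genes that the rule names are not reported here. Genes were chosen, and the 45 lists written, with earlier results of these data known. Alternatives were other thresholds, pseudocounts, filters, scalings, left-out controls and a block for the shared GFP name.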

Additional observations from a re-analysis of the deposited data

Results flagged for a closer look

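For 2 of the 30 named genes the FUBP1 library lay outside both controls on one side in proliferating cells and on the other side in differentiating cells. Pla2g3 was above TRC and GFP, but at 1.03 FPKM in 7, 0.780 in GFP-D and 0.331 in FUBP1-D it lay below both by 0.42 log2 units or more (-0.419 from the nearer control). Angpt2 was below TRC and GFP, but at 15.6 FPKM in 7, 2.45 in GFP-D and 18.3 in FUBP1-D it lay above both by at least 0.213 log2 units. The limma test of the difference between states gave 3.34 ± 0.66 (SE, adjusted p = 0.9995) for Pla2g3 and -2.50 ± 1.29 (SE, adjusted p = 0.9995) for Angpt2. With 1 library per hairpin and state, neither opposite sign has a replicate.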

How the results depend on the processing

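The counts of genes far from both controls depended on the settings. With a pseudocount of 0.1 they were 197 above and 84 below, with 11 and 9 shared with the differentiating comparison, and with a pseudocount of 5 they were 44, 2 and 1 shared above. At a 1.5-fold threshold they were 291 and 153, with 26 and 15 shared, and at 2 log2 units 24 and 0, with 0 shared above. A filter of a mean of 5 FPKM left 65 above, 3 of them shared. Shared genes below were 1 under median of ratios scaling and 2 under quantile normalization. Leaving out 1 control in turn gave 293 to 900 genes above and 83 to 889 below. The counts without Y-linked genes (116 and 15) or without clustered protocadherins (116 and 15) were added after seeing the data. Of the 119 and 15 genes, 35 and 1 passed under every pseudocount, filter and scaling tried. The limma counts stayed at 0 in every fit but the one with no filter on low values, with 182 genes for FUBP1 and 376 for the difference between states. None of the 182 was among the genes kept, and 175 were under 1 FPKM in every library. The additive model gave 256 genes at an unadjusted p under 0.05 and 0 calls. For Fubp1 the difference ran from -0.52 without GFP to 1.41 without TRC. The replicate numbers only follow the order of the samples, and the FUBP1 libraries have no control of their own number or name. GFP and GFP-D share a name, and across genes the differences TRC minus GFP and 7 minus GFP-D, which share no library, correlated at 0.35. A replicate block of that name, added after seeing the data and with 1 residual degree of freedom, gave 0 calls in both limma tests, with 372 and 251 genes at an unadjusted p under 0.05, and 0.45 for Fubp1.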
